A study of Mus musculus with 16 samples.

Results

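The 10 genes described here are immediate early regulators of transcription and signalling. They are Egr1, Egr2 and Egr3 of the early growth response family of zinc finger factors, the orphan nuclear receptors Nr4a1, Nr4a2 and Nr4a3, the immediate early response genes Ier2, Ier3 and Ier5, and Srf, which encodes the serum response factor. They were picked by gene symbol from a table of read counts and are 10 of its 20295 genes. The 10 genes, and the lists of other genes used further on, were chosen with earlier results of these data known. Their counts of called genes, set beside the shares of all tested genes, are therefore descriptions and no test of the sets. Immediate early genes are transcribed within minutes of a signal from factors that the cell already holds, and most of their mRNAs are short-lived. SRF bound to CArG boxes, together with ternary complex factors or myocardin-related factors, and CREB bound to cAMP response elements are well-known routes to them. EGR proteins are held back by the NAB corepressors. NR4A receptors act as monomers, some of them also as dimers with RXR, and need no known ligand. Adrenergic signalling through cAMP is known to induce NR4A receptors in brown fat.

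The cells were mouse brown preadipocytes made immortal with the SV40 large T antigen and differentiated in culture, and RNA was sequenced at day 7. They were pre-treated for 1 h with Vehicle (DMSO), with 5 µM triacsin C (TC), which blocks long-chain acyl-CoA synthetases, or with 50 µM etomoxir (ETO), which blocks carnitine palmitoyltransferase, and were then kept for 3 h with or without SR-3420. SR-3420 is a ligand of ABHD5 that switches on the lipase ATGL without a receptor agonist, and its dose is 10 µM in the labels while the published study states another one. The comparisons ask whether fatty acids released by lipolysis must be activated to acyl-CoA, or oxidized, to change transcription. Of the 6 groups, Vehicle (replicates 2 and 3) and SR-3420 (replicates 1 and 3) had 2 samples each, and TC, TC+SR-3420, ETO and ETO+SR-3420 had 3 each. Vehicle and SR-3420 thus share only replicate number 3, and the model used for calls leaves the number out. Should equal numbers mark the same experiment, which the labels do not state, SR-3420 against Vehicle would also hold a difference between experiments. Total counts per sample were 14032494 and 10097582 for Vehicle and 19156037 and 15667121 for SR-3420. They were 9452861, 15818919 and 13164376 for TC and 16265789, 12043744 and 10659704 for TC+SR-3420. For ETO the totals were 14993463, 11813662 and 10993504, and for ETO+SR-3420 they were 25670624, 13173278 and 16512525. All 10 genes passed the filter on low counts, as did 12786 genes (63%) of the table. A gene is called below when its adjusted p from the edgeR quasi-likelihood test is under 0.05, in a model of the 6 groups and with the adjustment made over the 12786 genes. The methods of the study state 3 independent experiments for RNA-seq, and the legend of its figure on these inhibitors gives 2 to 3 biologically independent ones. The p-values measure the spread between the samples used here.

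SR-3420 raised most of the 10 genes, with and without an inhibitor. Without an inhibitor 8 of the 10 were called higher, against 4.75% of all tested genes, and the ones that were not called were Nr4a2 and Srf. In cells given TC, again 8 of 10 were called higher (TC+SR-3420 against TC), against 17.3% of tested genes, and Nr4a2 and Srf were the exceptions here too. With ETO the call reached 9 of 10 (ETO+SR-3420 against ETO), against 12.5%, and Srf alone was not called. The fitted log2 fold change (log2FC) was above 0 for 10 of 10 genes in each of these comparisons, also when counts were scaled by DESeq2's size factors or by total counts. Its median over the 10 genes was 1.72 without an inhibitor, 1.63 with TC and 2.06 with ETO, beside -0.0038, 0.019 and 0.0094 over all tested genes. Scaling by total counts moved the median of all tested genes by -0.114 for SR-3420 against Vehicle, and the changes given here are relative to TMM scaling. When all tested genes were ranked by log2FC for SR-3420 against Vehicle, Nr4a3 stood at place 31, Egr1 at 41, Egr2 at 53 and Nr4a1 at 96. The samples are bulk RNA, in which fewer cells of a type and less RNA per cell cannot be told apart. The call without an inhibitor rests on 2 samples a group: a model of only these 4 samples called 3 of 10, Egr1, Egr2 and Nr4a1. Without Vehicle replicate 3 the count was 5, since Nr4a3 (adjusted p = 0.0875), Ier2 (0.185) and Ier5 (0.0742) were no longer called, and without SR-3420 replicate 1 the calls of Ier2 (0.147) and Ier5 (0.0509) were lost. Over all alternatives tried the adjusted p was 1.6e-05 to 0.0991 for Nr4a3, 0.000206 to 0.185 for Ier2 and 4.61e-05 to 0.142 for Ier5.

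**Figure D1:**
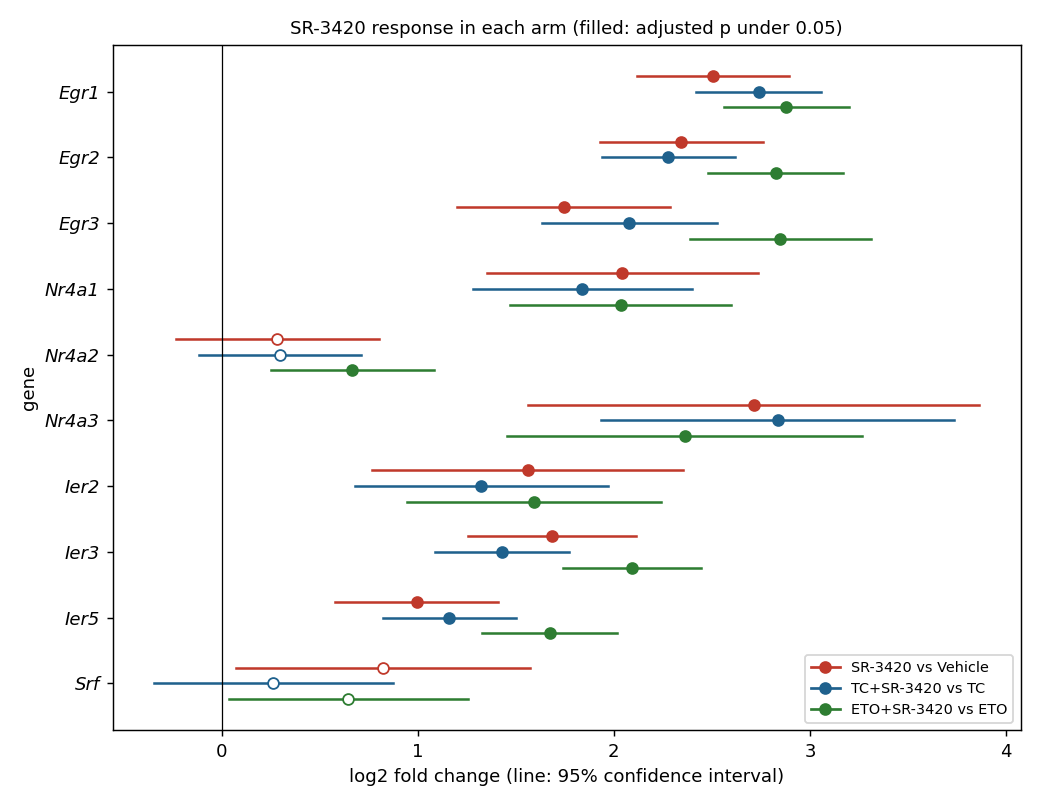
Log2 fold change of the 10 genes with SR-3420, without an inhibitor (SR-3420 against Vehicle), with TC and with ETO, where points are edgeR estimates and bars 95% confidence intervals. The EGR genes, Nr4a1, Nr4a3 and the IER genes lie above 0 in each setting, while the intervals of Nr4a2 and Srf reach 0 in at least 1 of them.

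Egr1, a zinc finger activator that binds GC-rich sites, separated the samples cleanly. Its normalized counts (counts divided by DESeq2's size factors) were 1276 and 1239.7 in the Vehicle samples and 6974 and 7145 in the SR-3420 samples. With TC they were 1399, 1453 and 1303 without SR-3420 and 10744, 9005 and 8384 with it, and with ETO they were 1607, 1528 and 1330.4 and 12845, 8896 and 11054. Every sample given SR-3420 lay far above every sample without it, and the ETO+SR-3420 samples were the most spread out. The log2FC of Egr1 was 2.51 (standard error 0.18, adjusted p = 6.01e-06) for SR-3420 against Vehicle, a 5.68-fold rise. It was 2.74 (standard error 0.15, adjusted p = 2.06e-07) with TC and 2.88 (standard error 0.15, adjusted p = 1.58e-07) with ETO. Ordered by group mean, Egr1 was lowest in Vehicle and then higher in TC, ETO, SR-3420, TC+SR-3420 and ETO+SR-3420 in turn, where the neighbours TC and ETO, and TC+SR-3420 and ETO+SR-3420 differed by less than the larger of their SDs. Egr2, a close relative known for its part in myelination and in early adipogenesis, showed the same split. Its normalized counts spanned 239.8 to 361 over the 8 samples without SR-3420 and 1303 to 2073 over the 8 samples with it. The rise of Egr2 was 5.08-fold without an inhibitor, 4.85-fold with TC and 7.09-fold with ETO, with log2FCs of 2.34 (standard error 0.19, adjusted p = 1.72e-05), 2.28 (standard error 0.16, adjusted p = 9.04e-07) and 2.83 (standard error 0.16, adjusted p = 3.16e-07). From the lowest group mean to the highest, the order was ETO, Vehicle, TC, SR-3420, TC+SR-3420 and ETO+SR-3420, and ETO and Vehicle, Vehicle and TC, SR-3420 and TC+SR-3420, and TC+SR-3420 and ETO+SR-3420 lay within the larger SD of each other.

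Egr3, which is known from T cells and muscle spindles, rose as well. The Vehicle samples had 116 and 100.2 normalized counts and the SR-3420 samples 314 and 404. Samples given TC had 113, 146 and 88.5, and with SR-3420 added 514, 469 and 508. Samples given ETO had 64.4, 94.7 and 62.3, and with SR-3420 added 497, 570.0 and 523. The SR-3420 samples without an inhibitor stood above all unstimulated ones but below every sample given SR-3420 with an inhibitor, and the ETO samples lay below both Vehicle samples. SR-3420 raised Egr3 by a log2FC of 1.74 (standard error 0.25, adjusted p = 0.00113) without an inhibitor, 2.08 (standard error 0.21, adjusted p = 1.31e-05) with TC and 2.85 (standard error 0.21, adjusted p = 2.28e-06) with ETO. Group means of Egr3, low to high, followed the order ETO, Vehicle, TC, SR-3420, TC+SR-3420 and ETO+SR-3420, with no difference beyond the larger SD between Vehicle and TC, and TC+SR-3420 and ETO+SR-3420.

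**Figure D2:**
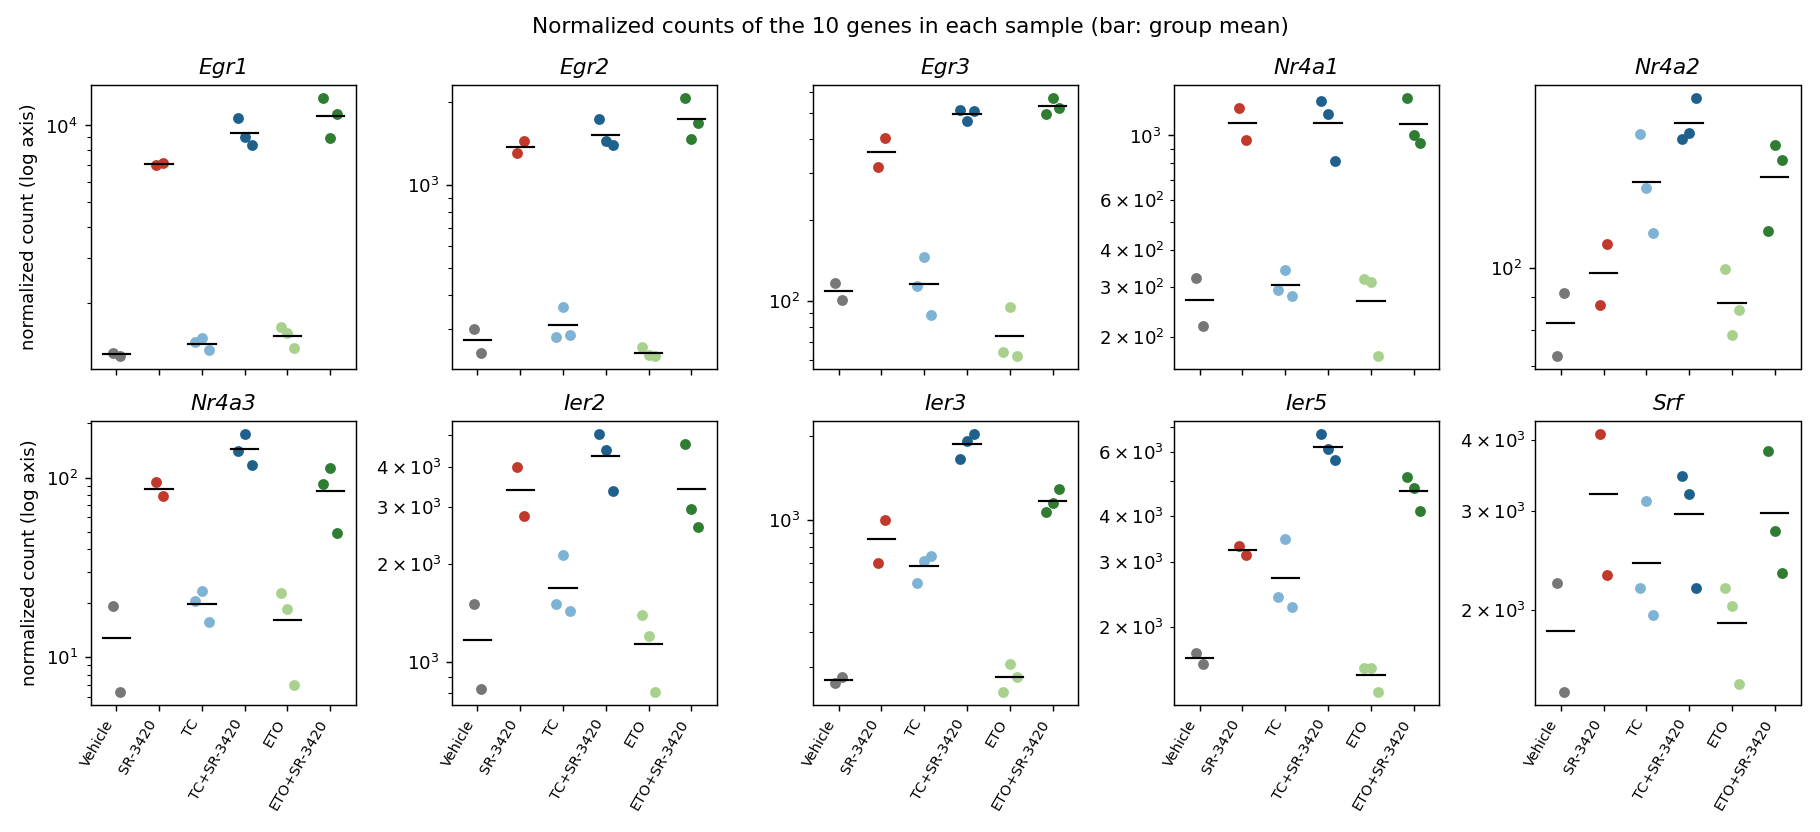
Normalized counts of each of the 10 genes in every sample, on a log axis, with a point per sample, a bar for the group mean and the 6 groups along the x axis. For Egr1 the samples with SR-3420 lie at 6974 to 12845 and the others at 1239.7 to 1607, whereas the points of Nr4a2 and Srf overlap between stimulated and unstimulated samples.

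Of the NR4A receptors, which bind DNA without a known ligand, Nr4a1 (NUR77) and Nr4a3 (NOR1) rose with SR-3420 in every setting. Nr4a1 had 322 and 218 normalized counts in the Vehicle samples and 1240.1 and 968 in the SR-3420 samples. The TC samples had 292, 342 and 278 and the TC+SR-3420 samples 1315, 1186 and 816, and the ETO samples had 318, 311 and 173 against 1349.8, 1002 and 940.5 in ETO+SR-3420. Stimulated and unstimulated samples did not overlap, and the stimulated groups covered much the same range whichever inhibitor was present. The log2FC of Nr4a1 was 2.04 (standard error 0.32, adjusted p = 0.00193) for SR-3420 against Vehicle, 1.84 (standard error 0.26, adjusted p = 0.000137) with TC and 2.04 (standard error 0.26, adjusted p = 0.000145) with ETO. From the lowest group mean to the highest, the order was ETO, Vehicle, TC, ETO+SR-3420, SR-3420 and TC+SR-3420, and ETO and Vehicle, Vehicle and TC, ETO+SR-3420 and SR-3420, and SR-3420 and TC+SR-3420 lay within the larger SD of each other. Nr4a3 was near the floor of the table without SR-3420, and its counts before normalization went down to 5. In normalized counts it had 19.2 and 6.42 in Vehicle and 94.0 and 79.0 in SR-3420. It had 20.5, 23.4 and 15.6 in TC and 141, 175 and 118 in TC+SR-3420, and 22.7, 18.5 and 7.05 in ETO against 92.4, 112 and 49.0 in ETO+SR-3420. No stimulated sample was as low as any unstimulated one, though ETO+SR-3420 replicate 3 came closest. Its log2FCs carried the widest errors of the 10 genes, at 2.71 (standard error 0.53, adjusted p = 0.00799), 2.84 (standard error 0.42, adjusted p = 0.000184) with TC and 2.36 (standard error 0.42, adjusted p = 0.00134) with ETO. Ordered by group mean, Nr4a3 was lowest in Vehicle and then higher in ETO, TC, ETO+SR-3420, SR-3420 and TC+SR-3420 in turn, where the neighbours Vehicle and ETO, ETO and TC, and ETO+SR-3420 and SR-3420 differed by less than the larger of their SDs.

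Nr4a2 (NURR1), best known as a factor of dopamine neurons, followed another pattern. It had 72.7 and 91.2 normalized counts in Vehicle and 87.5 and 109 in SR-3420. The TC samples had 163, 134 and 113, the TC+SR-3420 samples 159.9, 163 and 186, the ETO samples 99.7, 78.4 and 85.8 and the ETO+SR-3420 samples 114, 156 and 148. Vehicle and SR-3420 overlapped, as did TC and TC+SR-3420, while the ETO+SR-3420 samples all lay above the ETO samples. The log2FC was 0.28 (standard error 0.24, adjusted p = 0.547) for SR-3420 against Vehicle and 0.30 (standard error 0.19, adjusted p = 0.247) with TC, neither of which was called. With ETO it was 0.67 (standard error 0.19, adjusted p = 0.0229), a call that was lost when ETO replicate 2 (0.0899), ETO replicate 3 (0.0559), ETO+SR-3420 replicate 2 (0.094) or ETO+SR-3420 replicate 3 (0.0557) was left out (adjusted p in parentheses). The same call was lost in the model of only the ETO and ETO+SR-3420 samples (adjusted p = 0.0959) and with scaling by total counts (adjusted p = 0.0527), and over all alternatives the adjusted p was 0.00665 to 0.0959. The difference between the responses of Nr4a2 without an inhibitor and with ETO was 0.38 (95% confidence interval -0.28 to 1.05) and was not called (adjusted p = 0.988). By mean the groups of Nr4a2 stood, low to high, in the order Vehicle, ETO, SR-3420, TC, ETO+SR-3420 and TC+SR-3420, with no difference beyond the larger SD between Vehicle and ETO, ETO and SR-3420, and TC and ETO+SR-3420.

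Promoters of 7 of the 10 genes were found in a RefSeq table of the mouse build GRCm38.p6 that holds 250 bases before and 50 bases from each start, and Egr1, Egr3 and Ier2 were not in it. The full cAMP response element (TGACGTCA), which contains the shorter site TGACG, read as CGTCA on the opposite strand, was in 0 of the 7, beside 2.03% of the 27025 genes in the table. The shorter site was in 5 of the 7, beside 23% of genes. Both strands were searched here and for the motifs named further on. The promoters of Nr4a1, Nr4a2 and Nr4a3 held 4 matches each, a number reached or passed by 76 of 32851 windows (0.231%), a share counted after these windows had been seen. They are printed because Nr4a1 and Nr4a3 were called in each comparison with SR-3420 and Nr4a2 in 1 of them, while all have these matches, with the 250 bases before the start shown 5′ to 3′ and TGACG or CGTCA in capitals. The windows are chr15:101266596-101266845 (plus strand) for Nr4a1, chr2:57124004-57124253 (minus strand) for Nr4a2 and chr4:48045055-48045304 (plus strand) for Nr4a3. Counted from the start, the matches lie at -233 to -229, -213 to -209, -69 to -65 and -40 to -36 in Nr4a1, at -200 to -196, -144 to -140, -123 to -119 and -111 to -107 in Nr4a2 and at -231 to -227, -213 to -209, -205 to -201 and -147 to -143 in Nr4a3. A match describes the letters alone.
Nr4a1: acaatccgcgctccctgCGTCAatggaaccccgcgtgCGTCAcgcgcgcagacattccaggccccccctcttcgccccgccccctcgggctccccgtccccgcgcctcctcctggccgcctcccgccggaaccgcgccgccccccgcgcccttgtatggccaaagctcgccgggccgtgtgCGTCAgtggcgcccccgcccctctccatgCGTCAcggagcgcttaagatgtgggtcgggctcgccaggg
Nr4a2: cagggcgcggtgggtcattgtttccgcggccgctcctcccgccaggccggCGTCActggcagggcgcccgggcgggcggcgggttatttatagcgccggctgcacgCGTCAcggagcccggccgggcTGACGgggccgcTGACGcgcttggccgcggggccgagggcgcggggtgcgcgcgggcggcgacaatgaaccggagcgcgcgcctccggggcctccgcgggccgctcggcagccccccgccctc
Nr4a3: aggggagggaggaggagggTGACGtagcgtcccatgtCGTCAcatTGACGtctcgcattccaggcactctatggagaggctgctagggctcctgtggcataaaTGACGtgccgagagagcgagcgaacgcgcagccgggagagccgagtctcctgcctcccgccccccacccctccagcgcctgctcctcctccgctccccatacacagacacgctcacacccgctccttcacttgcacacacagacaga

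All 3 immediate early response genes rose with SR-3420. Ier3 (IEX-1), which is known to limit apoptosis and to feed back on ERK signalling, changed with SR-3420 and with TC. Its normalized counts were 262 and 275 in Vehicle, 701 and 1004 in SR-3420 and 595, 712 and 742 in TC. They were 1646, 1920.3 and 2029 in TC+SR-3420, 244, 307 and 276 in ETO and 1072, 1147 and 1292 in ETO+SR-3420. The TC+SR-3420 samples were the highest of all, the TC samples lay above every Vehicle and ETO sample, and their range overlapped that of SR-3420. SR-3420 raised Ier3 by a log2FC of 1.69 (standard error 0.20, adjusted p = 0.000286) without an inhibitor, 1.43 (standard error 0.16, adjusted p = 2.48e-05) with TC and 2.09 (standard error 0.16, adjusted p = 2.92e-06) with ETO. For Ier3 the order of group means, low to high, was Vehicle, ETO, TC, SR-3420, ETO+SR-3420 and TC+SR-3420, and Vehicle and ETO, and TC and SR-3420 lay within the larger SD of each other. Ier5, whose product acts on the heat shock factor HSF1, had 1699.6 and 1581 normalized counts in Vehicle, 3325 and 3140.4 in SR-3420 and 2415, 3466 and 2259 in TC. It had 6703, 6098 and 5675 in TC+SR-3420, 1544, 1546 and 1329 in ETO and 5125, 4774 and 4133 in ETO+SR-3420. TC+SR-3420 was again the highest group, with no overlap with ETO+SR-3420. The log2FCs of Ier5 were 1.00 (standard error 0.19, adjusted p = 0.00728), 1.16 (standard error 0.16, adjusted p = 0.000104) with TC and 1.67 (standard error 0.16, adjusted p = 1.63e-05) with ETO. Ordered by group mean, Ier5 was lowest in ETO and then higher in Vehicle, TC, SR-3420, ETO+SR-3420 and TC+SR-3420 in turn, where the neighbours TC and SR-3420 differed by less than the larger of their SDs. Ier2, a nuclear protein of less settled function, spanned 807 to 2137 normalized counts over the 8 unstimulated samples and 2601 to 5045 over the 8 stimulated ones, with no overlap. Its rise was 2.95-fold without an inhibitor, 2.5-fold with TC and 3.02-fold with ETO (adjusted p = 0.0215, 0.00368 and 0.002). The means of Ier2 followed, low to high, the order ETO, Vehicle, TC, SR-3420, ETO+SR-3420 and TC+SR-3420, with no difference beyond the larger SD between ETO and Vehicle, SR-3420 and ETO+SR-3420, and ETO+SR-3420 and TC+SR-3420.

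Srf, the MADS-box factor that many immediate early and cytoskeletal genes depend on, was not called in any comparison by the test used here. With the replicate number as a block in edgeR, Srf was called higher for SR-3420 against Vehicle (adjusted p = 0.00727). The block also called it for ETO+SR-3420 against ETO (adjusted p = 0.00154), but the labels state no pairing. Its normalized counts were 2233 and 1434 in Vehicle and 4101 and 2310.0 in SR-3420. They were 2188, 3119 and 1959.8 in TC and 3457, 3216 and 2191 in TC+SR-3420, and 2184, 2033 and 1481 in ETO and 3821, 2758 and 2328 in ETO+SR-3420. The SR-3420 samples were above the Vehicle samples and the ETO+SR-3420 samples above the ETO samples, and TC overlapped TC+SR-3420. The log2FC of Srf was 0.82 (standard error 0.35, adjusted p = 0.182) for SR-3420 against Vehicle, 0.26 (standard error 0.28, adjusted p = 0.493) with TC and 0.65 (standard error 0.28, adjusted p = 0.113) with ETO, and the 95% confidence interval of the first ran from 0.071 to 1.57. Ranked by mean, low to high, the groups of Srf were Vehicle, ETO, TC, TC+SR-3420, ETO+SR-3420 and SR-3420, and Vehicle and ETO, ETO and TC, TC and TC+SR-3420, TC+SR-3420 and ETO+SR-3420, and ETO+SR-3420 and SR-3420 lay within the larger SD of each other.

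The CArG box, the sequence that SRF binds, was found in the promoters of 2 of the 7 genes, Egr2 and Srf itself, beside 1.81% of the genes in the promoter table. The monomer site of NR4A receptors (NBRE, AAAGGTCA) was in 0 of the 7, beside 1.7% of genes, and the EGR site GCGTGGGCG was in 0 of the 7, beside 0.707%. Egr2 was called higher with SR-3420 in each setting, and Srf in none by the test used here. The part of the box in this was not tested. The Egr2 and Srf windows are printed because both have this box. They hold the 250 bases before the start, with the CArG boxes in capitals, at chr10:67537316-67537565 (plus strand) for Egr2, the first of its 5 windows with a match, and at chr17:46556163-46556412 (minus strand) for Srf. From the start, the box of Egr2 lies at -72 to -63 and those of Srf at -82 to -73 and -62 to -53.
Egr2: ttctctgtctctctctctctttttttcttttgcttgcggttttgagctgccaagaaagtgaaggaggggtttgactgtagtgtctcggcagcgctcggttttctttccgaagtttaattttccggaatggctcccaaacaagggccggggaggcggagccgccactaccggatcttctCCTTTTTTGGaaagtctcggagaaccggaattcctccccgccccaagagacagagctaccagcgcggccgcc
Srf: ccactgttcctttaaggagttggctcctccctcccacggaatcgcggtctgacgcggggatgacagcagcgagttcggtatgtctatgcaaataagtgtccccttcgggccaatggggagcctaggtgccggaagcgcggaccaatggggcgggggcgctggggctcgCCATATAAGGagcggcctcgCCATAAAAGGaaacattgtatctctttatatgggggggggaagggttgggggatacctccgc

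Divided by the counted length of each gene, the highest means were those of Ier2 and Ier5 in Vehicle and of Egr1 and Ier2 in SR-3420. In the Vehicle samples Ier2 had 764 ± 316 normalized counts per kb (mean ± SD, n = 2), Ier5 502 ± 25.6, Srf 448 ± 138 and Egr1 409.5 ± 8.47. Lower down came Ier3 at 246 ± 8.67, Nr4a1 at 109 ± 29.6, Egr2 at 92.1 ± 13.3, Egr3 at 27.9 ± 2.91, Nr4a2 at 27.1 ± 4.32 and Nr4a3 at 6.80 ± 4.79 normalized counts per kb. In this order Ier2 and Ier5, Ier5 and Srf, Srf and Egr1, Nr4a1 and Egr2, and Egr3 and Nr4a2 differed by less than the larger of their SDs. In the SR-3420 samples Egr1 led with 2298 ± 39.3 normalized counts per kb (mean ± SD, n = 2), before Ier2 with 2232 ± 542, Ier5 with 989 ± 39.9, Srf with 783 ± 309 and Ier3 with 782 ± 197. Egr2 followed with 463 ± 33.3, Nr4a1 with 446 ± 77.8, Egr3 with 92.7 ± 16.3, Nr4a3 with 45.9 ± 5.63 and Nr4a2 with 32.5 ± 5.11. Here Egr1 and Ier2, Ier5 and Srf, Srf and Ier3, and Egr2 and Nr4a1 did not differ beyond the larger SD. Nr4a3 and Nr4a2 thus changed places at the bottom of the order.

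The inhibitors were also compared with Vehicle in the absence of SR-3420. TC alone raised 3 of the 10 genes, against 4.77% of all tested genes called higher. Ier3 rose 2.58-fold, with a log2FC of 1.37 (standard error 0.19, adjusted p = 0.00028). Ier5 rose 1.68-fold, with 0.75 (standard error 0.18, adjusted p = 0.0144), and Nr4a2 1.69-fold, with 0.76 (standard error 0.22, adjusted p = 0.0433). For each of the 3 genes every TC sample lay above both Vehicle samples. Egr1 also had its TC samples above the Vehicle samples but was not called, at a log2FC of 0.16 (95% confidence interval -0.18 to 0.50). The median log2FC over the 10 genes was 0.49, beside 0.072 over all tested genes. The count fell to 1, Ier3, without Vehicle replicate 2, without Vehicle replicate 3, in the model of only the TC and Vehicle samples and when a log2FC of at least 1 was also required. For Nr4a2 the adjusted p was 0.253 without Vehicle replicate 2, 0.106 without Vehicle replicate 3, 0.139 without TC replicate 1 and 0.0886 without TC replicate 2, and for Ier5 it was 0.0691 without Vehicle replicate 2 and 0.133 without Vehicle replicate 3. The call of Nr4a2 was also lost with no filter on low counts (adjusted p = 0.122) and with scaling by total counts (adjusted p = 0.108), and over all alternatives the adjusted p was 0.0164 to 0.253 for Nr4a2 and 0.00116 to 0.133 for Ier5. ETO alone gave 0 called genes of 10 in edgeR and 0 in DESeq2, with 1 at an unadjusted p under 0.05, and 0.0235% of all tested genes were called in either direction. The gene with the unadjusted p was Egr3, at a log2FC of -0.56 (95% confidence interval -1.06 to -0.052, unadjusted p = 0.033, adjusted p = 1). The log2FC lay above 0 for 5 of the 10 genes, and its sign changed with scaling by total counts for Nr4a1 and Ier2. The comparisons of TC and of ETO with Vehicle share the Vehicle samples.

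With SR-3420 present, TC set Ier3 and Ier5 apart from SR-3420 alone. In TC+SR-3420 against SR-3420, 2 of the 10 genes were called higher, against 1.02% of tested genes. The log2FC was 1.11 (standard error 0.18, adjusted p = 0.00446) for Ier3 and 0.91 (standard error 0.18, adjusted p = 0.0123) for Ier5, with every TC+SR-3420 sample above both SR-3420 samples. Nr4a2 had 0.77 (standard error 0.22, adjusted p = 0.0642) and was called by DESeq2 (adjusted p = 0.0084), which made 3 genes there. Egr1 had 0.39 (standard error 0.16, adjusted p = 0.185), while Nr4a1 lay at -0.017 (95% confidence interval -0.62 to 0.58), with a sign that turned under DESeq2's size factors and under scaling by total counts. The count was 0 without SR-3420 replicate 1 (adjusted p = 0.0955 for Ier3 and 0.126 for Ier5), 0 in the model of only these groups (0.0773 and 0.0605), and 1 (Ier3) without SR-3420 replicate 3 (0.0667 for Ier5) or with a log2FC of at least 1 required. Over all alternatives the adjusted p was 1.16e-07 to 0.0955 for Ier3, 3.01e-05 to 0.126 for Ier5 and 0.0084 to 0.536 for Nr4a2. ETO+SR-3420 against SR-3420 gave 0 called genes of 10 in edgeR, 5 at an unadjusted p under 0.05 and 1 in DESeq2, and 0.00782% of tested genes were called in either direction. The gene DESeq2 called was Egr1 (adjusted p = 0.0265), whose edgeR log2FC was 0.61 (standard error 0.16, adjusted p = 0.27) and whose 3 ETO+SR-3420 samples all lay above the SR-3420 samples. Over all alternatives its adjusted p was 0.0265 to 1. Egr3, Ier3, Ier5 and Nr4a2 also had unadjusted p-values under 0.05, with log2FCs of 0.55, 0.44, 0.52 and 0.49. The log2FCs of Nr4a1, Nr4a3 and Ier2 were -0.024, -0.047 and -0.0073, and their signs turned with scaling by total counts, that of Ier2 also with DESeq2's size factors. The median over the 10 genes was 0.42 for TC+SR-3420 and 0.38 for ETO+SR-3420 against SR-3420, beside 0.017 and -0.00049 over all tested genes, and these comparisons share their SR-3420 samples.

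**Figure D3:**
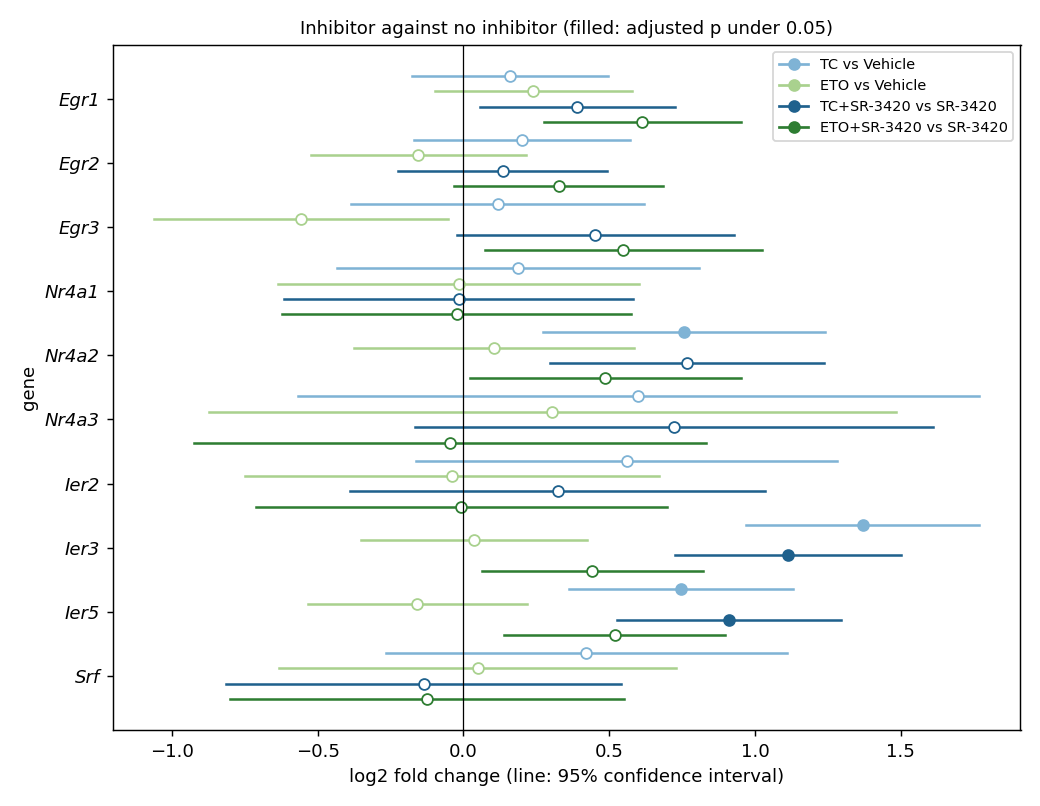
Log2 fold change of the 10 genes with TC or ETO, each without SR-3420 (against Vehicle) and with it (against SR-3420), as edgeR estimates with 95% confidence intervals. Ier3 and Ier5 lie above 0 with TC in both settings, at 1.37 and 1.11 for Ier3, and the ETO intervals without SR-3420 reach 0 for all genes but Egr3.

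Whether an inhibitor altered the response to SR-3420 was tested as the difference between responses. For TC (its response minus the response without an inhibitor) 0 of the 10 genes were called in edgeR or DESeq2, 0 had an unadjusted p under 0.05, and 2.51% of all tested genes were called in either direction. The differences ran from -0.56 for Srf to 0.33 for Egr3 on the log2 scale, with a median of -0.028 beside -0.04 over all tested genes. The interval for Egr1 was -0.24 to 0.70 and that for Nr4a3, the least precise, -1.39 to 1.64. Egr2, at -0.066, turned sign with scaling by total counts, which moved the median of all tested genes by 0.131 in this comparison. For ETO likewise 0 of 10 were called in edgeR or DESeq2, 2 had an unadjusted p under 0.05, and the share of tested genes called was 0%. Egr3 had the largest difference of the 10, 1.11 (95% confidence interval 0.41 to 1.80, unadjusted p = 0.00428, adjusted p = 0.988), as its response was 1.74 without an inhibitor and 2.85 with ETO. Ier5 was the other gene with an unadjusted p under 0.05, with a difference of 0.68 (95% confidence interval 0.15 to 1.21, adjusted p = 0.988). For Nr4a1 the difference was -0.0072, with an interval from -0.87 to 0.86 and a sign that turned under both other scalings. Both differences share the response without an inhibitor. The response with TC minus that with ETO uses no sample of the inhibitor-free groups, and here too 0 of 10 were called in edgeR or DESeq2, with 4 at an unadjusted p under 0.05 and 2.29% of tested genes called in either direction. The 4 genes were Egr2 at -0.55, Egr3 at -0.77, Ier3 at -0.66 and Ier5 at -0.51, with adjusted p-values of 0.272, 0.242, 0.173 and 0.345. Nr4a3 was the one gene of the 10 with a difference above 0, and the median over them was -0.38 beside -0.06 over all tested genes. An uncalled difference does not show that responses were equal.

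**Figure D4:**
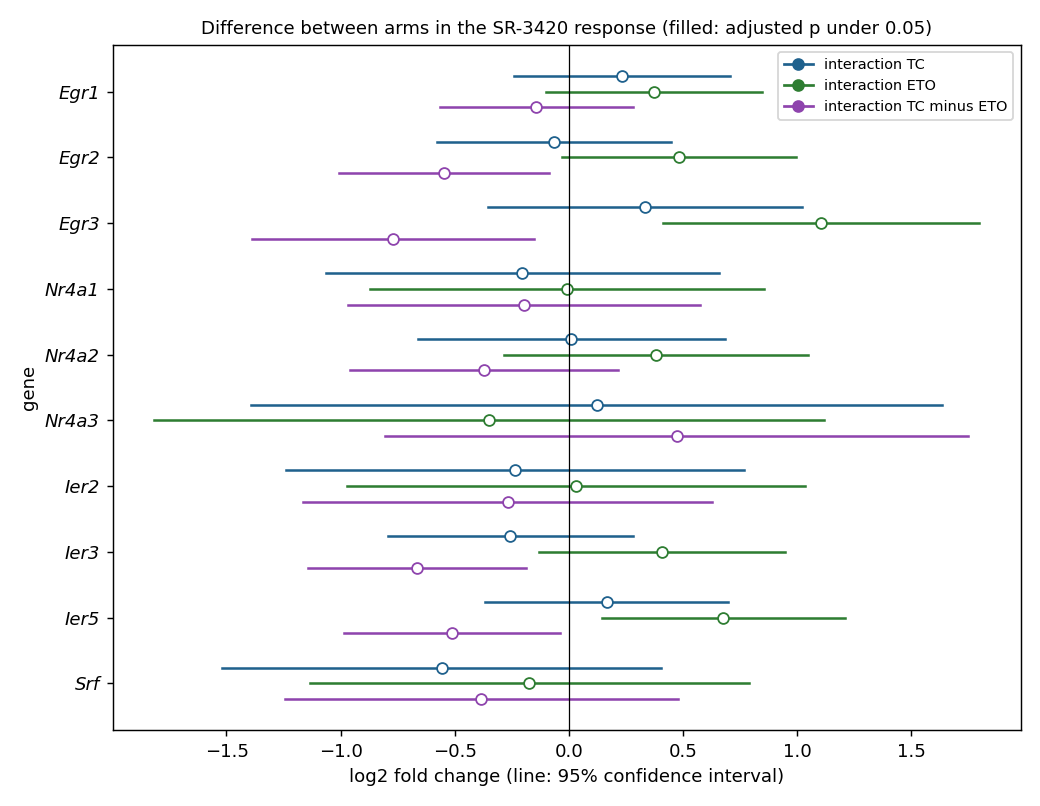
Differences between responses to SR-3420 for the 10 genes, on the log2 scale, with TC minus no inhibitor, ETO minus no inhibitor, and TC minus ETO, as edgeR estimates with 95% confidence intervals. No difference (0 of 10 genes in each) was called at an adjusted p under 0.05 in edgeR without a block or in DESeq2, and Egr3 with ETO lies farthest above 0, at 1.11.

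Genes that act upstream of, beside or downstream of these factors were followed in lists, each counted without an inhibitor, with TC and with ETO, where 4.75%, 17.3% and 12.5% of all tested genes were called higher and 2.79%, 19.7% and 12.8% lower. Of 35 tested immediate early genes of other families, such as AP-1 subunits, dual-specificity phosphatases and Sprouty proteins, 21 were called higher with SR-3420 alone, 25 with TC and 28 with ETO. Their median log2FCs were 1.55, 1.39 and 1.85, beside -0.0038, 0.019 and 0.0094 over all tested genes. Without an inhibitor the leading ones were Atf3, a stress-induced ATF family member, with 3.64 (standard error 0.18, adjusted p = 3.48e-07), the AP-1 subunit Fos with 2.96 (standard error 0.31, adjusted p = 0.000117) and the ERK phosphatase Dusp5 with 2.58 (standard error 0.37, adjusted p = 0.00104). With TC they were Dusp5 with 2.52 (standard error 0.30, adjusted p = 4.03e-05), the AP-1 subunit Fosb with 2.41 (standard error 0.24, adjusted p = 1.33e-05) and the ERK pathway inhibitor Spry2 with 2.30 (standard error 0.18, adjusted p = 3.06e-06). With ETO Atf3 led with 3.34 (standard error 0.15, adjusted p = 5.88e-08), before Dusp5 with 3.09 (standard error 0.31, adjusted p = 2.21e-05) and Fosb with 2.84 (standard error 0.25, adjusted p = 7.8e-06). The pseudokinase gene Trib1 was the 1 gene called lower, with TC, where its log2FC was -0.88 (standard error 0.12, adjusted p = 8.35e-05). With TC alone 14 of the 35 were called higher than in Vehicle, against 4.77% of all tested genes, and 6 without Vehicle replicate 3. TC alone raised Atf3 (log2FC 2.61, adjusted p = 1.1e-06) and Trib1 (log2FC 0.87, adjusted p = 0.000665) over Vehicle, and the responses with TC start from these levels. In the model of only the Vehicle and SR-3420 samples the 21 genes called higher became 11.

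Of 13 tested CREB targets, 6 were called higher without an inhibitor, 7 with TC and 7 with ETO, against 4.75%, 17.3% and 12.5% of all tested genes, with medians of 0.80, 0.75 and 0.79. The EGF receptor ligand Areg rose most, by a log2FC of 4.81 (standard error 0.69, adjusted p = 0.0011) without an inhibitor, 4.82 with TC and 4.80 with ETO. Without SR-3420 Areg was near the floor, at 2.02 and 3.85 normalized counts in Vehicle, 6.24 to 8.80 in TC and 0.906 to 9.80 in ETO. The size of its log2FCs is therefore imprecise. The small GTPase Gem rose by 2.26 (standard error 0.20, adjusted p = 3.02e-05), 2.62 and 2.64, and the kinase Sik1 by 1.37 (standard error 0.24, adjusted p = 0.00336) without an inhibitor and 1.75 (standard error 0.19, adjusted p = 4.68e-05) with ETO. The phosphodiesterase Pde10a was the third in order with TC, at 1.76 (standard error 0.25, adjusted p = 0.000137). Rgs2, which dampens G protein signalling, was called lower without an inhibitor, at -1.35 (standard error 0.38, adjusted p = 0.0469), and with ETO, at -1.26 (standard error 0.31, adjusted p = 0.00915). Its log2FC with TC was -0.23, adjusted p = 0.592, and TC alone had it lower than Vehicle (log2FC -1.26, adjusted p = 0.0256), a call lost without Vehicle replicate 3 (0.232), TC replicate 1 (0.0853) or TC replicate 2 (0.0853), with an adjusted p of 0.000189 to 0.232 over all alternatives. Crem, also in this list, had 114 ± 23.4 normalized counts (mean ± SD) in Vehicle and 71.0 ± 8.39 in SR-3420. It had 90.8 ± 12.5 in TC and 80.5 ± 20.7 in TC+SR-3420, and 112 ± 30.3 in ETO and 86.5 ± 23.4 in ETO+SR-3420. Ppargc1a had 716 ± 18.1 in Vehicle and 815 ± 40.3 in SR-3420. Its values were 343 ± 48.7 in TC and 336 ± 13.9 in TC+SR-3420, and 938 ± 244 in ETO and 725 ± 298 in ETO+SR-3420. Dio2 and Ucp1 stand in this list and also among the brown adipocyte markers. The count without an inhibitor was 2 in the model of only these groups and 3 without Vehicle replicate 2, without Vehicle replicate 3 or without SR-3420 replicate 3. Of 18 tested cytoskeletal targets of SRF, 8, 11 and 13 were called higher, beside the same shares of all tested genes, with medians of 0.78, 0.57 and 0.75. Zyx, which encodes the focal adhesion protein zyxin, rose in each setting, by 1.102 (standard error 0.25, adjusted p = 0.0189), 1.01 (standard error 0.21, adjusted p = 0.00196) and 1.27 (standard error 0.21, adjusted p = 0.000732). Calponin (Cnn1) rose by 1.48 (standard error 0.26, adjusted p = 0.00405) and Fhl1 by 0.99 (standard error 0.15, adjusted p = 0.00155) without an inhibitor. With TC the LIM protein Fhl2 rose by 1.12 (standard error 0.17, adjusted p = 0.000265) and the YAP and SRF target Ankrd1 by 0.75 (standard error 0.21, adjusted p = 0.0131), and with ETO Fhl2 rose by 0.94 (standard error 0.17, adjusted p = 0.00162) and the tropomyosin Tpm2 by 0.86 (standard error 0.15, adjusted p = 0.0012). With TC alone 3 of the 18 were called higher than in Vehicle, Cnn1, Tagln2 and Fhl1, against 4.77% of all tested genes. All 3 calls were lost in the model of only the TC and Vehicle samples, at adjusted p-values of 0.0533, 0.0785 and 0.122. The count was 1 without TC replicate 2 or 3. With 1 Vehicle sample left, without replicate 2 or 3, the log2FCs were 1.08 or 1.19 for Cnn1. They were 0.415 or 0.557 for Tagln2 and 0.436 or 0.51 for Fhl1. The 8 genes without an inhibitor became 0 in the model of only these groups, 1 without Vehicle replicate 2, 3 without Vehicle replicate 3, 4 without SR-3420 replicate 1 and 5 without SR-3420 replicate 3, and with a log2FC of at least 1 required the counts were 2, 2 and 1.

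Partners of these factors were counted in the same way. Of 6 tested SRF partners, 1, 3 and 2 were called higher without an inhibitor, with TC and with ETO, against 4.75%, 17.3% and 12.5% of all tested genes, with medians of 0.26, 0.65 and 0.42. The ternary complex factor Elk3 was among them each time, at 0.63 (standard error 0.14, adjusted p = 0.0167), 0.61 (standard error 0.12, adjusted p = 0.00118) and 0.72 (standard error 0.12, adjusted p = 0.000686). With TC the myocardin-related factors Mkl1, at 0.79 (standard error 0.25, adjusted p = 0.0252), and Mkl2, at 0.69 (standard error 0.11, adjusted p = 0.000255), were called as well, and Mkl2 was lower in TC than in Vehicle (log2FC -0.71, adjusted p = 0.00131). Among the NAB corepressors and remaining EGR and IER genes, 1 of 3 was called higher without an inhibitor and 1 with ETO, in each case Nab2, at 1.01 (standard error 0.28, adjusted p = 0.0427) and 1.05 (standard error 0.23, adjusted p = 0.00451), and Egr4 did not pass the filter. With TC the count was 0 in edgeR, 0 at an unadjusted p under 0.05 and 0 in DESeq2. The medians of this list were 0.38, 0.25 and 0.35, and the shares of all tested genes called higher are those given for the SRF partners. The products of the 3 RXR genes pair with some of the NR4A receptors. Of these genes 0 were called without an inhibitor in edgeR (1 at an unadjusted p under 0.05, 0 in DESeq2). With TC 1 was called lower and with ETO 2, and the medians were -0.084, -0.22 and -0.91 in the 3 settings. The shares of all tested genes called lower were 2.79%, 19.7% and 12.8%. Rxrg was lower with TC, at -1.37 (standard error 0.22, adjusted p = 0.000398), and with ETO, at -1.03 (standard error 0.22, adjusted p = 0.004), where Rxra was lower too, at -0.91 (standard error 0.22, adjusted p = 0.00821). Rxra was not called for SR-3420 with TC (log2FC -0.049, adjusted p = 0.874), but TC alone had it lower than Vehicle (log2FC -1.55, adjusted p = 0.000773). It was also lower in TC+SR-3420 than in SR-3420 (log2FC -0.92, adjusted p = 0.0447), a call lost without SR-3420 replicate 1 (0.508) or without TC+SR-3420 replicate 1 (0.0765), 2 (0.101) or 3 (0.16), in the model of only these groups (0.105) and with DESeq2's size factors (0.0504), with an adjusted p of 0.00135 to 0.508 over all alternatives.

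**Figure D5:**
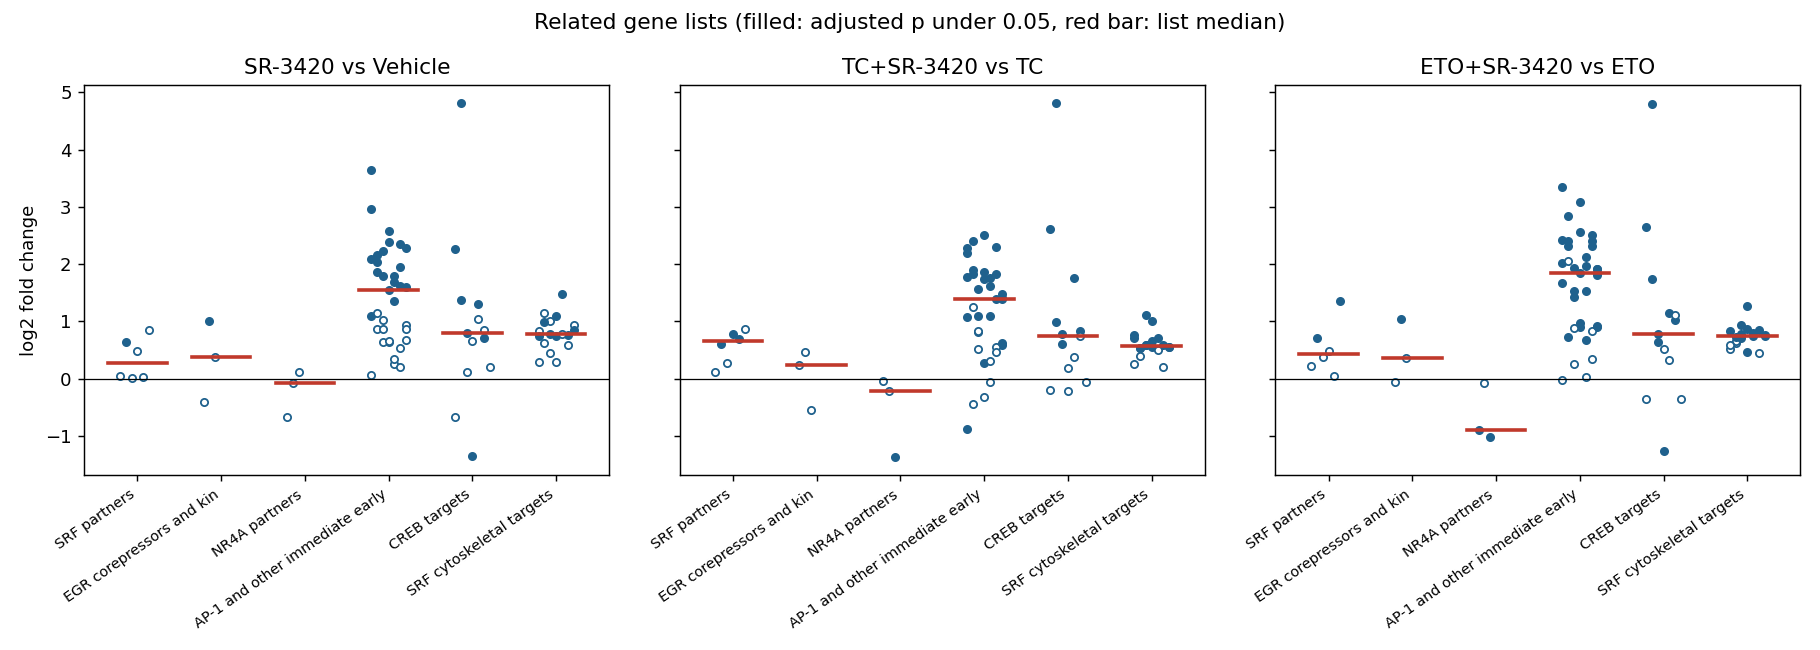
Log2 fold change with SR-3420 of every tested gene in 6 lists, without an inhibitor, with TC and with ETO, where each dot is a gene, filled dots are called and the red bar is the list median. The immediate early genes of other families have medians of 1.55, 1.39 and 1.85, and the RXR genes -0.084, -0.22 and -0.91.

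Some of these calls in the lists depended on the fit or on single samples, as the adjusted p-values in parentheses show. For SR-3420 against Vehicle, the calls of Rgs2, Elk3, Sik1, Nab2, Cnn1, Zyx and Fhl1 were lost in the model of only the compared groups, with adjusted p-values of 0.11, 0.326, 0.111, 0.166, 0.182, 0.136 and 0.181. The call of Rgs2 was also lost with no filter (0.0609), without Vehicle replicate 2 (0.0858), without Vehicle replicate 3 (0.258), without SR-3420 replicate 1 (0.266) and without SR-3420 replicate 3 (0.118). Elk3 also lost its call with no filter (0.0579), with scaling by total counts (0.0841), without Vehicle replicate 2 (0.129), without Vehicle replicate 3 (0.0711) and without SR-3420 replicate 1 (0.127). The call of Sik1 was also lost without Vehicle replicate 3 (0.0556). Nab2 also lost its call without Vehicle replicate 2 (0.112), without Vehicle replicate 3 (0.249), without SR-3420 replicate 1 (0.226) and without SR-3420 replicate 3 (0.0755). The call of Cnn1 was also lost without Vehicle replicate 2 (0.0532). Zyx also lost its call without Vehicle replicate 2 (0.084), without Vehicle replicate 3 (0.141) and without SR-3420 replicate 1 (0.136). The call of Mkl1 was lost without TC replicate 1 (0.0549), without TC replicate 2 (0.0521), without TC replicate 3 (0.09) and without TC+SR-3420 replicate 1 (0.0867) in TC+SR-3420 against TC. Ankrd1 lost its call without TC replicate 2 (0.0509) and without TC+SR-3420 replicate 3 (0.0574) in TC+SR-3420 against TC. For ETO+SR-3420 against ETO, the calls of Rgs2, Nab2, Rxra and Rxrg were lost in the model of only the compared groups, with adjusted p-values of 0.0594, 0.0575, 0.055 and 0.0518. Over all alternatives the adjusted p was 0.000466 to 0.266 for Rgs2, 0.000377 to 0.326 for Elk3, 3.32e-06 to 0.111 for Sik1, 0.000781 to 0.249 for Nab2, 0.000269 to 0.182 for Cnn1, 0.000152 to 0.141 for Zyx and 2.58e-09 to 0.181 for Fhl1 without an inhibitor. It was 3.66e-05 to 0.09 for Mkl1 and 0.00035 to 0.0574 for Ankrd1 with TC, and 1.6e-05 to 0.0594 for Rgs2, 1.66e-05 to 0.0575 for Nab2, 0.000139 to 0.055 for Rxra and 8.24e-05 to 0.0518 for Rxrg with ETO.

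Genes whose counts followed Egr1 and Nr4a1 most closely were sought among the tested genes outside the 10, by Pearson's r of log2 normalized counts (with 1 added) over the 16 samples. These samples fall into stimulated and unstimulated groups, so r mostly reads that split and is given as a description. For Egr1 the 5 closest were the VLDL receptor Vldlr (r = 0.978), the CREB family member Creb5 (0.978), Tsc22d2 (0.978), the transcription factor Sox9 (0.976) and the aggrecan-cleaving protease Adamts4 (0.974). With SR-3420 alone, with TC and with ETO, Creb5 had log2FCs of 2.10, 2.83 and 2.33 and Sox9 of 1.82, 1.82 and 2.29. Those of Vldlr were 1.497, 1.48 and 1.26, those of Tsc22d2 1.04, 1.09 and 1.07 and those of Adamts4 1.41, 1.58 and 1.66. For Nr4a1 the closest were the glucose transporter Slc2a1 (r = 0.992), thrombospondin (Thbs1, 0.985), Dusp5 (0.983), the ankyrin Ank1 (0.981) and the galactosyltransferase B4galt5 (0.981), of which Dusp5 is also in the list of other immediate early genes. Slc2a1 had log2FCs of 2.26, 1.87 and 2.13 in the 3 settings and Thbs1 of 1.21, 1.04 and 1.04. For Ank1 they were 1.503, 1.54 and 1.52 and for B4galt5 1.39, 1.33 and 1.44.

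Markers of brown adipocytes and of other cell types were counted in the same samples. Of 12 brown adipocyte markers 11 were tested, with Fabp4 the most abundant, Ucp1 at a mean of 29.8 normalized counts and Dio2 at 0 in 12 of 16 samples. With SR-3420 1 of the 11 was called lower without an inhibitor, 8 with TC and 6 with ETO, against 2.79%, 19.7% and 12.8% of all tested genes. The median log2FC of the 11 was -0.036 without an inhibitor, -1.13 with TC and -0.79 with ETO. Without an inhibitor the 1 gene was Pparg, and Ucp1, Cidea, Elovl3, Cox7a1 and Lipe had uncalled log2FCs above 0, at 0.84, 0.76, 0.73, 0.47 and 0.15. That call was lost with any of the 4 samples left out, with no filter and in the model of only these groups, and with ETO the count was 3 without ETO replicate 1, 2 without ETO+SR-3420 replicate 2 and 1 in the model of only these groups. In TC+SR-3420 against SR-3420, 4 of the 11 were called lower (6 in DESeq2), against 3.55% of all tested genes, with a median of -0.87. ETO+SR-3420 against SR-3420 gave 0 called of the 11, 6 at an unadjusted p under 0.05 and a median of -0.78. For the TC difference 0 of the 11 were called in edgeR and 4 lower in DESeq2, against 1.27% of tested genes called lower. There 10 had an unadjusted p under 0.05, and the median was -1.19. Summed normalized counts of the list, in which abundant genes such as Fabp4 and Adipoq weigh most, were 261011 and 219221 in Vehicle and 207839 and 172220.4 in SR-3420. The sums were 249254, 281246 and 259622 in TC and 104929, 103219.9 and 98677 in TC+SR-3420, and 248204, 221662 and 229937 in ETO and 136557, 90254 and 147940.0 in ETO+SR-3420. Each sum with SR-3420 was below those of its own control, which does not hold for every gene in the list. The 8 markers of preadipocytes or fibroblasts, led by Col1a1, were all tested, and 3 were called higher with TC and 6 with ETO, against 17.3% and 12.5% of all tested genes, while without an inhibitor the count was 0 in edgeR, 3 at an unadjusted p under 0.05 and 2 in DESeq2. They summed to 22479 and 19693 in Vehicle and 50182 and 36329 in SR-3420, to 31344, 27786 and 23929 in TC and 59672, 49273 and 38420.1 in TC+SR-3420, and to 27570.1, 19833 and 13404 in ETO and 60527, 42457 and 29299 in ETO+SR-3420. The sums with SR-3420 were higher than those of their controls here. With TC the count of 3 was 5 without TC replicate 1, 1 without TC replicate 3 or TC+SR-3420 replicate 1 and 6 in DESeq2, and with ETO the 6 became 3 without ETO+SR-3420 replicate 1 and 0 in the model of only these groups. Macrophage markers, with Cd68 the most abundant, Emr1 at 0 in 7 samples and Ptprc at 0 in 3, summed to 89.9 and 60.4 in Vehicle, 142 and 89.4 in SR-3420, 226, 251 and 236 in TC, 128, 128 and 115 in TC+SR-3420, 101, 103 and 77.6 in ETO and 133, 93.5 and 91.5 in ETO+SR-3420. Of the 2 tested, 1 was called higher in TC against Vehicle, where 4.77% of all tested genes were. In TC+SR-3420 against TC 1 was called lower, where 19.7% of all tested genes were, and in each case it was Cd68. Endothelial markers, with Kdr the most abundant, Cdh5 at 0 in 3 samples, Pecam1 at 0 in 2 and Tek at 0 in 2, summed to 20.2 and 23.1 in Vehicle, 23.5 and 31.2 in SR-3420, 11.7, 25.2 and 27.1 in TC, 36.8, 48.2 and 29.4 in TC+SR-3420, 18.1, 30.5 and 14.1 in ETO and 43.9, 48.7 and 40.9 in ETO+SR-3420. Kdr, the 1 tested, was called higher with TC and with ETO. The 10 most abundant genes took 7.84% to 9.19% of the counts in samples without SR-3420 and 4.24% to 7.14% in samples with it. The part of these shifts in the results for the 10 genes was not tested.

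On the build mm9 that the authors used, the 10 genes lie on 9 chromosomes, and Ier3 and Srf share chromosome 17. Egr1 lies at chr18:35020861-35024610 (plus strand, NM_007913), Egr2 at chr10:67000617-67004936 (plus strand, NM_010118) and Egr3 at chr14:70477252-70482420 (plus strand, NM_018781), with 3, 2 and 2 annotated exons. Nr4a1 lies at chr15:101097277-101105225 (plus strand, NM_010444), Nr4a2 at chr2:56959637-56976414 (minus strand, NM_001139509) and Nr4a3 at chr4:48064120-48096224 (plus strand, NM_015743), with 7, 8 and 8 exons, so that the receptors are the most divided genes of the set together with Srf. Ier2 lies at chr8:87185230-87186751 (minus strand, NM_010499) and Ier5 at chr1:156943497-156946766 (minus strand, NM_010500), each in a single exon, and Ier3 at chr17:35958658-35959856 (plus strand, NM_133662) has 2 exons. Srf lies at chr17:46683788-46693111 (minus strand, NM_020493) and has 7 exons. Egr1 overlaps the annotated gene Gm17507, and Srf the long noncoding RNA Gm16736, on the opposite strand, and since the use of strand in counting is not stated, their reads cannot be told apart.

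As Vehicle and SR-3420 have 2 samples each, fits that take the spread from them alone are the least certain. The authors kept 1 read per position and length, which can cap short, highly covered genes such as Ier2 and Egr1, and its effect was not tested.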

How the data were processed

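RNA-seq was measured in 16 samples of differentiated brown adipocytes in 6 groups, as mapped from the labels. The authors aligned reads to mm9 with STAR 2.4.2a, let HOMER keep 1 read for each position and length, and used iRNA-seq to count reads over genes, without stating how strand was used. Their deposited raw counts were used as they are. Totals per sample ran from 9452861 to 25670624, which limits the precision of low genes such as Nr4a3. In R 4.3.3, edgeR 4.0.16 was applied to the counts with TMM normalization, filterByExpr and the quasi-likelihood test, in 1 model with a mean for each group and no covariate, with Benjamini-Hochberg adjustment over the 12786 genes tested. Standard errors came from the log2FC and the test statistic. Normalized counts used the size factors of DESeq2 1.42.0, and the counted length in the table gave counts per kb. Python 3.11.15 served to search motifs on both strands of RefSeq promoters (GRCm38.p6) and, with matplotlib 3.10.9, for figures. Replicates in 14 pairs of samples differed by 4.41 to 162 times sampling noise (chi-square per degree of freedom), and 0 pairs were identical. The methods were tested on simulated counts with 200 changed genes. Among genes changed 4-fold, edgeR called 90% for SR-3420 against Vehicle (12585 genes), 93% for TC+SR-3420 against TC (12611) and 70% for the TC difference (12583). Of genes changed 2-fold it called 34%, 47% and 11%, so most differences between responses of that size would be missed. Of its calls 3.88%, 2.78% and 2.41% were false, against 19.2%, 12.2% and 18.2% with DESeq2, so a gene called by DESeq2 alone has weaker support. A first requirement, that more than 80% of 4-fold genes be called, failed for the TC difference and was replaced by limits on bias and on false calls of edgeR. All 10 members were named, and from each list of other genes at most 3 called genes in each direction, by log2FC, if their normalized counts averaged 50 or more; for Egr1 and Nr4a1 the 5 genes with the highest correlation were named. The members and the lists were chosen with earlier results of these data known. The alternatives were DESeq2's size factors, DESeq2 with its Wald test, no filter, a filter for 10 counts throughout, fits restricted to the groups compared, a block for replicate number, each sample left out in turn, a log2FC of at least 1 as a further condition and, for promoters, a shorter site. Scaling by total counts, and all of these for the lists and for genes whose responses differed, were added after seeing the data.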

Additional observations from a re-analysis of the deposited data

Results flagged for a closer look

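No difference between responses was called for the 10 members by edgeR without a block or by DESeq2 (0 of 10 in each of the 3 comparisons, with 0, 2 and 4 at an unadjusted p under 0.05). Some genes of the lists responded to SR-3420 differently with TC, by the test of the difference in edgeR. Among the immediate early genes of other families, Atf3 responded less with TC than without an inhibitor, by -1.45 (standard error 0.22, adjusted p = 0.00494) on the log2 scale, and less than with ETO, by -1.15 (standard error 0.19, adjusted p = 0.0079). For Trib1 the same differences were -0.94 (standard error 0.18, adjusted p = 0.0166) and -0.85 (standard error 0.16, adjusted p = 0.0144). The ERK inhibitor gene Spry4 differed by -0.97 (standard error 0.16, adjusted p = 0.00823) between TC and no inhibitor. With ETO the response of Spry4 differed by -0.67, adjusted p = 0.988 from that without an inhibitor, TC minus ETO was -0.31, adjusted p = 0.389, and ETO alone against Vehicle had 0.71, adjusted p = 0.0677, none of them called, so a difference of Spry4 particular to TC is not shown. Between TC and ETO the AP-1 gene Fosl2 differed by -0.69 (standard error 0.14, adjusted p = 0.0174) and the zinc finger gene Klf10 by -1.23 (standard error 0.22, adjusted p = 0.00988). These responses start from different levels: TC alone raised Atf3 (log2FC 2.61, adjusted p = 1.1e-06), Trib1 (0.87, adjusted p = 0.000665), Spry4 (0.88, adjusted p = 0.000217) and Klf10 (1.18, adjusted p = 0.000653), and in all 12 alternative fits these calls were kept. Fosl2 was not called with TC alone (0.23, adjusted p = 0.214). ETO alone against Vehicle had -0.40, adjusted p = 0.944 for Fosl2, -0.40, adjusted p = 1 for Trib1, -0.23, adjusted p = 1 for Klf10 and 0.59, adjusted p = 0.944 for Atf3, none of them called. The differences of Fosl2 and Klf10 between TC and no inhibitor were not called (-0.36, adjusted p = 0.241; -0.99, adjusted p = 0.0504), nor were those between ETO and no inhibitor (0.33, adjusted p = 0.988; 0.25, adjusted p = 0.988). In TC+SR-3420 Atf3 was higher than in SR-3420 (1.16, adjusted p = 0.00175), and Trib1, Spry4, Klf10 and Fosl2 were not called there (-0.066, adjusted p = 0.796; -0.096, adjusted p = 0.653; 0.20, adjusted p = 0.549; -0.13, adjusted p = 0.509). Of the partner genes, Rxrg differed by -1.49 (standard error 0.35, adjusted p = 0.0406) between TC and no inhibitor, and Mkl2 by 0.64 (standard error 0.15, adjusted p = 0.0402) between TC and ETO. For Rxrg the difference between ETO and no inhibitor was -1.14, adjusted p = 0.988 and TC minus ETO was -0.35, adjusted p = 0.784, neither of them called, so a difference of Rxrg particular to TC is not shown either. The macrophage marker Cd68 differed by -1.98 (standard error 0.36, adjusted p = 0.0139) between TC and no inhibitor and by -1.44 (standard error 0.32, adjusted p = 0.0329) between TC and ETO. TC alone lowered Mkl2 (-0.71, adjusted p = 0.00131) and raised Cd68 (1.92, adjusted p = 0.000366), also in all 12 alternative fits, while Rxrg had -0.032, adjusted p = 0.961. In TC+SR-3420 against SR-3420 Mkl2 had -0.046, adjusted p = 0.847, Cd68 -0.053, adjusted p = 0.925 and Rxrg -1.52, adjusted p = 0.00405, a call of Rxrg that was lost without SR-3420 replicate 1 and in the model of only these groups (adjusted p 1.36e-06 to 0.0781 over the alternatives). The call of Mkl2 (TC against ETO) was lost in 12 of 19 alternative fits, with no filter (0.0646), in the model of only the compared groups (0.0731), without TC replicate 2 (0.117), without TC replicate 3 (0.124), without TC+SR-3420 replicate 1 (0.1), without TC+SR-3420 replicate 3 (0.0878), without ETO replicate 1 (0.0716), without ETO replicate 2 (0.107), without ETO replicate 3 (0.0677), without ETO+SR-3420 replicate 1 (0.0594), without ETO+SR-3420 replicate 2 (0.0544) and without ETO+SR-3420 replicate 3 (0.0695), with an adjusted p of 0.000104 to 0.124 over all of them. In 12 of 19 fits Cd68 (TC against ETO) lost its call, with no filter (0.05), without TC replicate 1 (0.0654), without TC replicate 2 (0.0938), without TC replicate 3 (0.0787), without TC+SR-3420 replicate 1 (0.077), without TC+SR-3420 replicate 2 (0.0553), without TC+SR-3420 replicate 3 (0.0882), without ETO replicate 1 (0.0625), without ETO replicate 2 (0.0587), without ETO replicate 3 (0.0789), without ETO+SR-3420 replicate 1 (0.0883) and without ETO+SR-3420 replicate 2 (0.0669), with an adjusted p of 0.00128 to 0.0938 over all. The call of Rxrg (TC against no inhibitor) was lost in 10 of 17 alternative fits, with no filter (0.0641), without Vehicle replicate 2 (0.0859), without Vehicle replicate 3 (0.209), without SR-3420 replicate 1 (0.205), without TC replicate 1 (0.0734), without TC replicate 2 (0.0926), without TC replicate 3 (0.0873), without TC+SR-3420 replicate 1 (0.0744), without TC+SR-3420 replicate 2 (0.0637) and without TC+SR-3420 replicate 3 (0.0923), with an adjusted p of 0.00313 to 0.209 over all of them. In 5 of 17 fits Trib1 (TC against no inhibitor) lost its call, with no filter (0.0502), without Vehicle replicate 3 (0.118), without SR-3420 replicate 1 (0.0744), without SR-3420 replicate 3 (0.053) and without TC replicate 2 (0.0522), with an adjusted p of 2.02e-05 to 0.118 over all. The call of Fosl2 (TC against ETO) was lost in 3 of 19 alternative fits, with no filter (0.0722), without TC replicate 1 (0.051) and without TC+SR-3420 replicate 2 (0.0552), with an adjusted p of 1.02e-07 to 0.0722 over all of them. In 2 of 17 fits Cd68 (TC against no inhibitor) lost its call, without Vehicle replicate 3 (0.096) and without SR-3420 replicate 1 (0.0882), with an adjusted p of 4.87e-05 to 0.096 over all. The call of Spry4 (TC against no inhibitor) was lost in 1 of 17 alternative fits, without Vehicle replicate 3 (0.0623), with an adjusted p of 5.7e-08 to 0.0623 over all of them. In 1 of 19 fits Trib1 (TC against ETO) lost its call, without TC replicate 2 (0.0511), with an adjusted p of 1.17e-05 to 0.0511 over all. The calls of Atf3 (TC against no inhibitor), Atf3 (TC against ETO) and Klf10 (TC against ETO) were kept in all alternative fits.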

How the results depend on the processing

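Of 100 log2FCs (10 genes in 10 comparisons), 30 were called, and 0 of these turned direction in any alternative fit. The 81 turns of direction were all of uncalled values. Counts of called members differed by more than 1.5 times as follows. SR-3420 against Vehicle had 3 in the model of only the compared groups, where fewer samples give the spread, and 5 to 8 with 1 sample left out. TC against Vehicle had 1 in that model, 1 with a log2FC of at least 1 and 1 to 3 with 1 sample left out. TC+SR-3420 against SR-3420 had 0, 1 and 0 to 2 in these fits. ETO+SR-3420 against SR-3420 had 1 with DESeq2. With the replicate number as a block the counts were 4 for TC+SR-3420 and 3 for ETO+SR-3420 against SR-3420, and 1 for the TC minus ETO difference (Ier3, -0.662, adjusted p = 0.00792), and Srf was called for SR-3420 against Vehicle (adjusted p = 0.00727) and ETO+SR-3420 against ETO (adjusted p = 0.00154). The labels number the replicates but state no pairing. Deviations from group means correlated by more than 0.1 in 27 of 35 same-numbered pairs of samples (mean 0.386, -0.275 to 0.801), against a mean of -0.191 in pairs with other numbers, and 10 of 16 samples correlated best with one of their own number. Deviations cancel out within each group, so the pairs are not independent and the mean of the other pairs is no separate reference. The log2FCs that turned were Nr4a1 0.00299 in TC+SR-3420 against SR-3420, Ier2 0.00937 in ETO+SR-3420 against SR-3420 and Nr4a1 0.00797 in the ETO difference with DESeq2's size factors. With DESeq2's Wald test they were Nr4a1 0.00293 in TC+SR-3420 against SR-3420, Ier2 0.00923 in ETO+SR-3420 against SR-3420 and Nr4a1 0.00788 in the ETO difference, and with no filter Nr4a1 0.00408 in ETO against Vehicle, Ier2 0.0101 in ETO+SR-3420 against SR-3420 and Egr2 0.00264 in the TC difference. With at least 10 counts in every sample there was Nr4a2 -0.0063 in the TC difference, and Nr4a3 could not be fitted. The model of only the compared groups turned Ier2 0.0088 in ETO+SR-3420 against SR-3420, and the block turned Srf -0.0478 in ETO against Vehicle, Nr4a3 -0.0966 in the TC difference and Nr4a1 0.0386 in the ETO difference. Scaling by total counts, chosen after seeing the data, turned Nr4a1 0.0386 and Ier2 0.0228 in ETO against Vehicle, Nr4a1 0.0446 in TC+SR-3420 against SR-3420, Nr4a1 0.0803, Nr4a3 0.0588 and Ier2 0.097 in ETO+SR-3420 against SR-3420, Egr2 0.0578 in the TC difference and Nr4a1 0.0416 in the ETO difference. With 1 sample left out, in groups of 2 the lone sample being taken to vary like the other groups, the ranges of log2FCs that turned were as follows. In ETO against Vehicle they were Egr2 -0.296 to 0.00709, Nr4a1 -0.27 to 0.3, Nr4a2 -0.0486 to 0.269, Ier2 -0.41 to 0.469, Nr4a3 -0.231 to 1.34, Srf -0.238 to 0.41 and Ier3 -0.0573 to 0.11. For the TC difference there were Nr4a3 -0.911 to 0.659, Egr2 -0.226 to 0.0769, Nr4a1 -0.518 to 0.0509, Nr4a2 -0.153 to 0.185, Ier2 -0.742 to 0.136 and Ier3 -0.494 to 0.0311. In the ETO difference they were Ier2 -0.476 to 0.402, Nr4a1 -0.324 to 0.246, Nr4a3 -1.39 to 0.184 and Srf -0.536 to 0.294. For TC against Vehicle there were Nr4a1 -0.0702 to 0.5 and Egr3 -0.0899 to 0.284. In TC+SR-3420 against SR-3420 they were Nr4a1 -0.183 to 0.169 and Srf -0.491 to 0.331. For ETO+SR-3420 against SR-3420 there were Nr4a1 -0.189 to 0.163, Nr4a3 -0.309 to 0.229, Ier2 -0.291 to 0.26 and Srf -0.479 to 0.342. In the TC minus ETO difference they were Nr4a1 -0.348 to 0.0457 and Ier2 -0.452 to 0.0167. Leaving out 1 sample also ended 18 member calls over all such fits, the model of only the compared groups 10, scaling by total counts 2 and no filter 1, while DESeq2's Wald test added 2 and the block 8. Among 65 named values of the lists, 0 turned and 30 lost their call in at least 1 fit. Searching the shorter site in place of the full cAMP response element changed the number of member promoters with a match from 0 to 5. The cause of these changes was not tested.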
